A study of Mus musculus with 8 samples.

Results

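The genes described here encode the TIM23 presequence translocase, and they were chosen by name as the rows Timm23, Timm17a, Timm17b, Timm50, Timm21, Romo1, Timm44, Dnajc19, Dnajc15 and Pam16 of the deposited table. All 10 were found among its 14012 genes. Their transcripts were measured in quadriceps femoris (QF) muscle of 4 mice labelled as skeletal muscle-specific Grpel1 knockout (Grpel1 smk -/-) and 4 labelled wild type (Grpel1 flox/flox), called knockout and control here, with 1 polyadenylated RNA library per mouse. In the knockout mice a tamoxifen-inducible Cre under the human skeletal actin promoter deletes the floxed Grpel1 alleles, which the control mice also carry, in muscle fibres and not in the other cells of the muscle. The labels give no treatment and no age. The text of the paper calls Grpel1 flox/flox littermates untreated where it compares body weights. Its body weight figure lists floxed Cre mice without tamoxifen and also floxed mice lacking Cre that received tamoxifen. The paper does not state the treatment of the sequenced control mice. The comparison asks how the transcripts of the inner membrane import machinery stood in muscle whose mitochondrial HSP70 co-chaperone GRPEL1 was targeted.

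Most mitochondrial proteins are made in the cytosol, and those bound for the matrix carry an N-terminal presequence that the TIM23 complex of the inner membrane recognises. TIMM23 and TIMM17 form the channel part, TIMM50 is the receptor on the intermembrane space side, TIMM21 and ROMO1 associate with the channel, and TIMM44 tethers the mitochondrial HSP70 motor to it. DNAJC19 and DNAJC15 are J-domain proteins that stimulate the HSP70 motor, PAM16 is the J-like protein that holds them at the channel, and GRPEL1 is the nucleotide exchange factor of the same motor.

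The total count per library ran from 16017565 to 20361144, and the members had between 296 and 2549 counts in a library, so none was near the detection limit. The targeted gene did not check the labels: Grpel1 had 861, 1087, 961 and 1017 counts in control 1 to 4 and 1658, 1570, 1461 and 1508 counts in knockout 1 to 4. On the scaled level it had 68.4 ± 3.04 CPM in control and 65.3 ± 6.11 CPM in knockout muscle (CPM, the count relative to a library size scaled by the TMM method; mean ± SD, n = 4 each), and these ranges overlapped. Reads outside the deleted part of the gene, and RNA of cells without the deletion, can count towards it, and their part was not tested. At the protein level, the paper reports less GRPEL1 in knockout QF muscle by immunoblot. With TMM scaling, all 5 myofibre markers passed the test and were lower in knockout muscle. Their summed level was 179674 to 236034 CPM in control and 51809 to 71982 CPM in knockout libraries. On library totals alone, the median log2 fold change over the whole table moved from 0.07 to 0.73, and 8498 genes were called higher and 873 lower (60.6% and 6.23% of those tested), in place of 3303 and 2962 with TMM.

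With TMM scaling, 3 of the 10 members were lower in knockout muscle at an adjusted p under 0.01 in edgeR's quasi-likelihood test, namely Dnajc19, Timm23 and Timm17b, whereas on library totals alone none was called lower and 9 members, all but Dnajc19, were called higher. No member was called higher with TMM scaling. Over all genes tested, 21.1% were called lower and 23.6% higher, so 30% of members lower lies near the background and is no result about the members as a group. The same 3 members were the only ones whose groups did not overlap in CPM, all with knockout lower. Over all genes, 24.4% did not overlap with knockout lower. At an unadjusted p under 0.05, 5 members were lower and none higher, beside 29.4% of all genes lower. The median log2 fold change of the members was -0.18, beside 0.07 over all genes. Against the median of all genes on library totals alone, Dnajc19 lay at -0.69, Timm23 at -0.44 and Timm17b at -0.35. In bulk muscle, fewer cells of a type and less RNA per cell cannot be told apart.

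**Figure D1:**
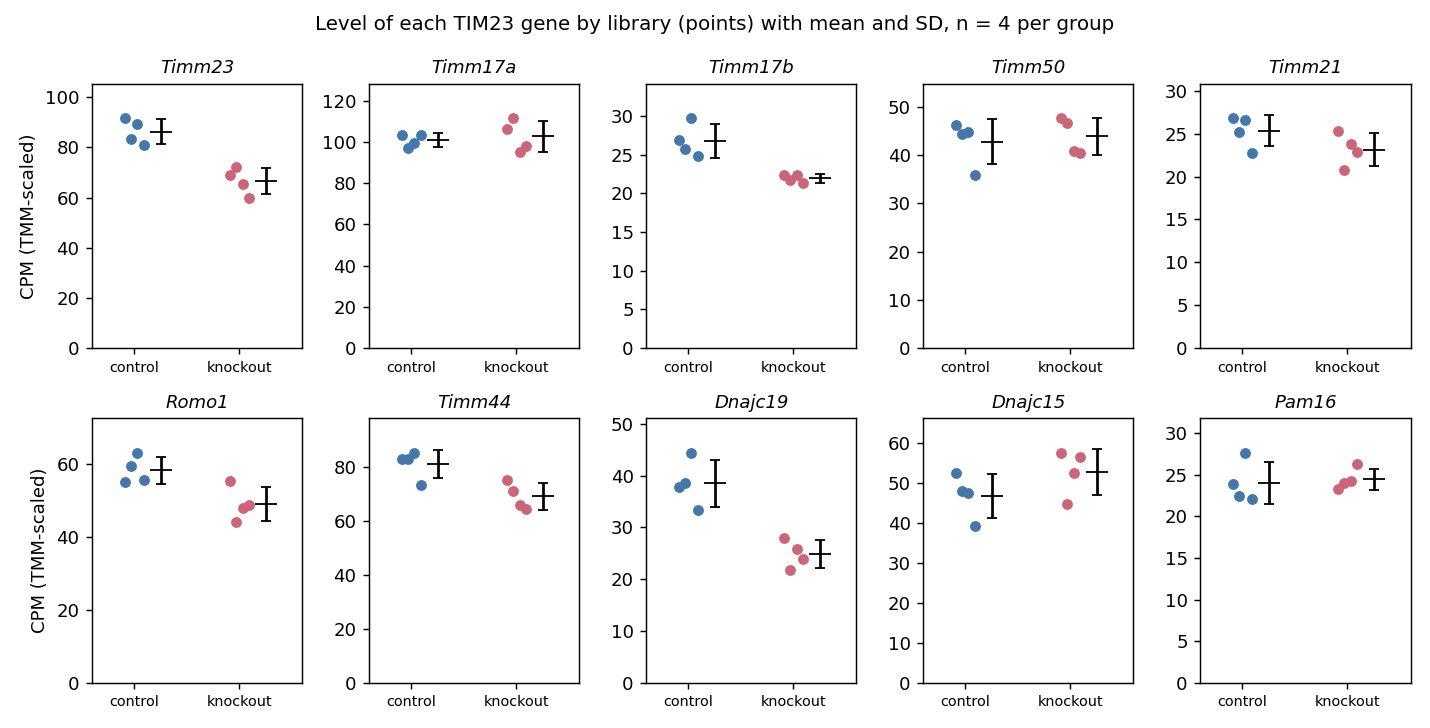
Level of each of the 10 TIM23 genes in CPM (TMM-scaled library sizes; vertical axes start at 0) in 4 control and 4 knockout libraries, shown as points, with the mean and SD in black. The groups are apart for Timm23, Timm17b and Dnajc19 and overlap for the other genes; on library totals alone the log2 fold changes of these 3 genes lie above 0.

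Timm23, the channel subunit that gives the complex its name (GRCm38, chr14:32180166-32201891, minus strand), was lower in knockout muscle on TMM scaling. Its level was 91.7, 83.4, 89.4 and 80.9 CPM in control 1 to 4, and 68.8, 72.2, 65.3 and 59.8 CPM in knockout 1 to 4. All knockout libraries lay below all control libraries. The log2 fold change was -0.38 (95% interval -0.55 to -0.21, adjusted p = 0.0019, edgeR with Benjamini-Hochberg adjustment), or 77.1% of control. The exact permutation test of log2 CPM gave p = 0.0286, two-sided, the smallest that 4 against 4 libraries allow. Leaving out each library in turn kept its call, with adjusted p from 0.0011 to 0.0063.

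The count of Timm23 needs a reservation, because 52.1% of the distinct 75-base stretches of its annotated transcripts (GENCODE M21) also occur in transcripts of other genes, among them Gm10171, Gm10233, Gm10273, Gm16209 and Gm7493. The authors left out reads that mapped to more than 1 place, so read pairs that match these genes and Timm23 equally well are not in the count. None of these 5 genes is in the table.

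The other channel subunit is encoded by a pair of paralogs. Timm17a (chr1:135301535-135313737, minus strand) had 104, 97.0, 99.4 and 104 CPM in control 1 to 4 and 106, 112, 95.2 and 98.1 CPM in knockout 1 to 4. The groups overlapped, and the log2 fold change was 0.03 (95% interval -0.13 to 0.18, adjusted p = 0.75, edgeR). Timm17b (chrX:7899336-7907652, plus strand) had 26.9, 25.7, 29.7 and 24.8 CPM in control 1 to 4 and 22.3, 21.7, 22.4 and 21.3 CPM in knockout 1 to 4. Each knockout library lay below each control library, and the knockout libraries lay closer together (SD 0.556 CPM) than the control libraries (SD 2.15 CPM). The log2 fold change of Timm17b was -0.29 (95% interval -0.45 to -0.12, adjusted p = 0.0075, edgeR), or 82.0% of control. In the annotation 4.58% of its exon bases overlap Gm10491 on the opposite strand. This call did not hold everywhere: the adjusted p was 0.012 with the replicate number as a block and 0.047 with the adipocyte markers as a covariate. It passed 0.01 when control 4 or knockout 3 was left out, and ranged from 0.011 to 0.024 when any other library was.

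Within a library the ratio of Timm17a to Timm17b does not depend on how libraries are scaled. The count ratio was 3.79 ± 0.344 in control and 4.69 ± 0.373 in knockout muscle (SD, n = 4). The log2 ratio was 1.94, 1.91, 1.74 and 2.06 in control 1 to 4 and 2.24, 2.36, 2.08 and 2.2 in knockout 1 to 4, without overlap. The difference was 0.31 (SE 0.0876), with an exact permutation p of 0.0286 and 0.0429 after Benjamini-Hochberg adjustment over the 12 ratios computed. Without any 1 of control 1, 2 or 3 or knockout 1, 2 or 4, the exact permutation p was 0.0571, with differences from 0.25 to 0.32. The groups still did not overlap in these settings. With TMM scaling Timm17a had a log2 fold change of 0.03 and Timm17b one of -0.29. On that scaling the ratio is thus mostly the lower Timm17b again.

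The upstream sequences of the 3 lower genes and of Timm17a, the paralog that did not pass, are shown so that the genes that differ in response can be set side by side. They are the longest stretch within 250 bases before the RefSeq transcription start that lies in no annotated exon, from RefSeq (GRCm38.p6), 5′ to 3′ on the strand of the gene. They hold 50 bases for Timm23, 209 for Timm17a, 66 for Timm17b and 250 for Dnajc19, so a match can lie outside the printed part. A GC box of Timm17a, 24 bases before the start, and a CCAAT box of Timm17b, 184 bases before it, are not printed. Capitals mark matches, on either strand, to the ETS letters CCGGAAG, the GC box GGGCGG and the CCAAT box CCAAT.
Timm23, chr14:32201899-32201948, minus strand: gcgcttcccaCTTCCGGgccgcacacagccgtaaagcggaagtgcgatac
Timm17a, chr1:135313779-135313987, minus strand: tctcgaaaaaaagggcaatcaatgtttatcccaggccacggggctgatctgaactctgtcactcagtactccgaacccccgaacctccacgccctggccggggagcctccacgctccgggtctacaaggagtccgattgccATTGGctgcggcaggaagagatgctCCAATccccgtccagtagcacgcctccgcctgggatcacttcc
Timm17b, chrX:7899270-7899335, plus strand: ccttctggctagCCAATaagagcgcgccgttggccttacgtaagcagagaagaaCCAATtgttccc
Dnajc19, chr3:34081355-34081604, minus strand: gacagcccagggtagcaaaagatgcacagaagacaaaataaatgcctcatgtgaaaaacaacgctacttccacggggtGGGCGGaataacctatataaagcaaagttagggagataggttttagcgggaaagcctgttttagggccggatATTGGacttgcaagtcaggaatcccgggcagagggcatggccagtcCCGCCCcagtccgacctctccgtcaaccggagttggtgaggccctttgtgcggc

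A promoter window, from 250 bases before to 50 bases after the start, was found for 9 members. The CCAAT box occurred in 5 of these 9 windows (Dnajc19, Timm17a, Timm17b, Timm44 and Timm50) and in 37.4% of all 32851 windows of the same length. The GC box occurred in 4 (Dnajc19, Pam16, Timm17a and Timm50) and in 35.7% of all windows, and the ETS letters in 2 (Timm23 and Romo1) and in 8.86% of all windows. The YY1 letters AAGATGG occurred in Timm17a and Timm50 and in 6.34% of all windows. Both Timm17 paralogs held the CCAAT box, and it was also found for Dnajc19 and not for Timm23, so it did not separate the called genes from the others. The NRF1 letters GCGCATGC, the letters TGATGNAA of the ATF4 and C/EBP composite element and the ERR letters TCAAGGTCA were in no member's window, and in 2.71%, 3.97% and 0.423% of all windows. No 2 matches before the start overlapped. The ratio of observed to expected CpG was over 0.6 in 8 of the 9 members' windows and in 35.8% of all windows. All windows belong to 27025 genes, while 14012 genes were tested for expression here. Shares of windows among the tested genes were not computed.

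Timm50, the receptor that meets presequences in the intermembrane space (chr7:28305826-28312046, minus strand), had 46.2, 44.3, 44.7 and 35.9 CPM in control 1 to 4 and 47.7, 46.7, 40.8 and 40.5 CPM in knockout 1 to 4. The groups overlapped, with a log2 fold change of 0.04 (95% interval -0.17 to 0.25, adjusted p = 0.74, edgeR). Timm21, whose product links the translocase to the TOM complex and to the respiratory chain, had 25.4 ± 1.85 CPM in control and 23.2 ± 1.90 CPM in knockout muscle, with a log2 fold change of -0.13 (95% interval -0.32 to 0.06, adjusted p = 0.21, edgeR). Neither gene passed the test.

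Romo1, a small membrane protein bound to the channel (chr2:156144153-156145794, plus strand), had 55.3, 59.5, 63.1 and 55.6 CPM in control 1 to 4 and 55.4, 44.3, 47.9 and 48.8 CPM in knockout 1 to 4. Knockout 1 lay within the control range and the other 3 below it. The log2 fold change was -0.25 (95% interval -0.43 to -0.07), and the adjusted p of 0.024 in edgeR's test missed the threshold. It was 0.0075 without knockout 1 (log2 fold change -0.32), 0.0097 with RLE size factors and 0.004 in DESeq2. In the annotation, 148 of the 747 exon bases of Romo1 (19.8%) overlap exons of Nfs1 on the opposite strand. Nfs1, a cysteine desulfurase, had a log2 fold change of -0.45 (SE 0.0916, adjusted p = 0.002, edgeR). Whether the counting used strand was not stated, and the part of shared reads in the value of Romo1 was not tested.

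Timm44, which anchors the HSP70 motor at the channel (chr8:4259731-4275905, minus strand), had 83.1, 82.9, 85.3 and 73.3 CPM in control 1 to 4 and 75.2, 71.1, 65.8 and 64.5 CPM in knockout 1 to 4. The groups overlapped because control 4 lay below knockout 1. The log2 fold change was -0.23 (95% interval -0.40 to -0.06), with an adjusted p of 0.024 in edgeR's test, 0.0091 with RLE size factors and 0.0026 in DESeq2. Timm44 and Romo1 were thus called lower in DESeq2 and with RLE size factors, and not in edgeR's test with TMM scaling at 0.01.

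The J-domain paralogs differed from each other. Dnajc19 (chr3:34057280-34081354, minus strand) had 37.7, 38.5, 44.4 and 33.4 CPM in control 1 to 4 and 27.98, 21.8, 25.9 and 23.9 CPM in knockout 1 to 4. Every knockout library lay below every control library on TMM scaling. Its log2 fold change was -0.63 (95% interval -0.86 to -0.40, adjusted p = 5.3e-04, edgeR), which is 64.7% of control and the largest change among the 10 members on this scaling. Without any 1 library the adjusted p ranged from 4.0e-04 to 0.0021. On library totals alone the value was 0.04 with an adjusted p of 0.66.

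In the annotation 178 of the 4027 exon bases of Dnajc19 (4.42%) overlap exons of Fxr1 on the opposite strand. Fxr1, an RNA-binding protein abundant in muscle, had 525 ± 31 CPM in control and 379 ± 21.7 CPM in knockout muscle, a log2 fold change of -0.47 (adjusted p = 4.5e-04, edgeR). The part of Fxr1 reads in the value of Dnajc19 was not tested.

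Dnajc15, the paralog of Dnajc19 (chr14:77826217-77874917, minus strand), had 52.4, 47.8, 47.4 and 39.3 CPM in control 1 to 4 and 57.4, 44.7, 52.4 and 56.3 CPM in knockout 1 to 4. The groups overlapped. The log2 fold change of 0.18 (95% interval -0.06 to 0.41, adjusted p = 0.18, edgeR) did not pass. Pam16, the J-like partner of both (chr16:4616466-4624946, minus strand), had 24 ± 2.54 CPM in control and 24.5 ± 1.26 CPM in knockout muscle, a log2 fold change of 0.03 (95% interval -0.17 to 0.22, adjusted p = 0.80, edgeR). In the annotation, 18.7% of its exon bases overlap Glis2 on the opposite strand, and 34.2% of its 75-base stretches occur in other genes' transcripts.

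**Figure D2:**
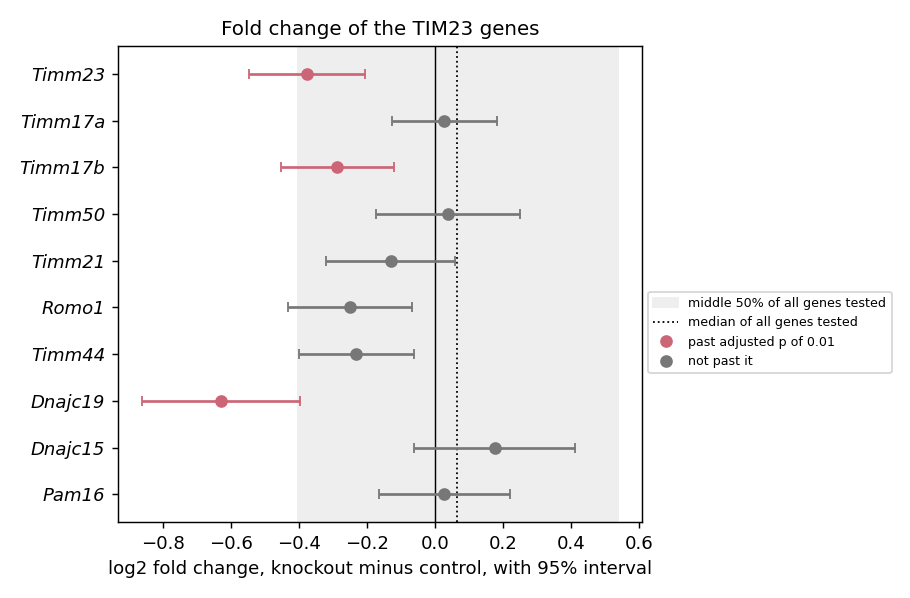
Log2 fold change (knockout minus control, TMM scaling) of the 10 TIM23 genes with 95% intervals, beside the median (dotted line) and the middle 50% of all 14012 genes tested (grey band, -0.40 to 0.54). Dnajc19, Timm23 and Timm17b passed an adjusted p of 0.01; on library totals alone all 3 values lie above 0.

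The ratio of Dnajc19 to Dnajc15 fell in knockout muscle. With TMM scaling Dnajc19 had a log2 fold change of -0.63, and Dnajc15 one of 0.18 that did not pass. On that scaling the ratio is thus mostly the lower Dnajc19 again. The count ratio was 0.828 ± 0.0905 in control and 0.473 ± 0.0327 in knockout libraries (SD, n = 4). On the log2 scale it was -0.47, -0.31, -0.09 and -0.23 in control 1 to 4 and -1.03, -1.04, -1.02 and -1.23 in knockout 1 to 4. The groups did not overlap, and the difference was -0.80 (SE 0.0945, exact permutation p = 0.0286, adjusted 0.0429). Without any 1 library the difference ranged from -0.87 to -0.74, and without knockout 4 it was -0.75.

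The ratio of Pam16 to Dnajc19, the J-like protein to its J-domain partner, was higher in knockout muscle. With TMM scaling Pam16 had a log2 fold change of 0.03 and Dnajc19 one of -0.63. On that scaling this ratio is thus no result apart from the lower Dnajc19. The count ratio was 0.625 ± 0.0334 in control and 0.993 ± 0.133 in knockout libraries. The log2 difference was 0.66 (SE 0.106, exact permutation p = 0.0286, adjusted 0.0429), without overlap, and from 0.60 to 0.74 without any 1 library. In control muscle the counts of Pam16 were thus below those of Dnajc19 in every library, and in knockout muscle they lay on either side of equal, with log2 ratios of -0.26, 0.14, -0.09 and 0.13 in knockout 1 to 4. These are ratios of read counts and not of levels per length.

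**Figure D3:**
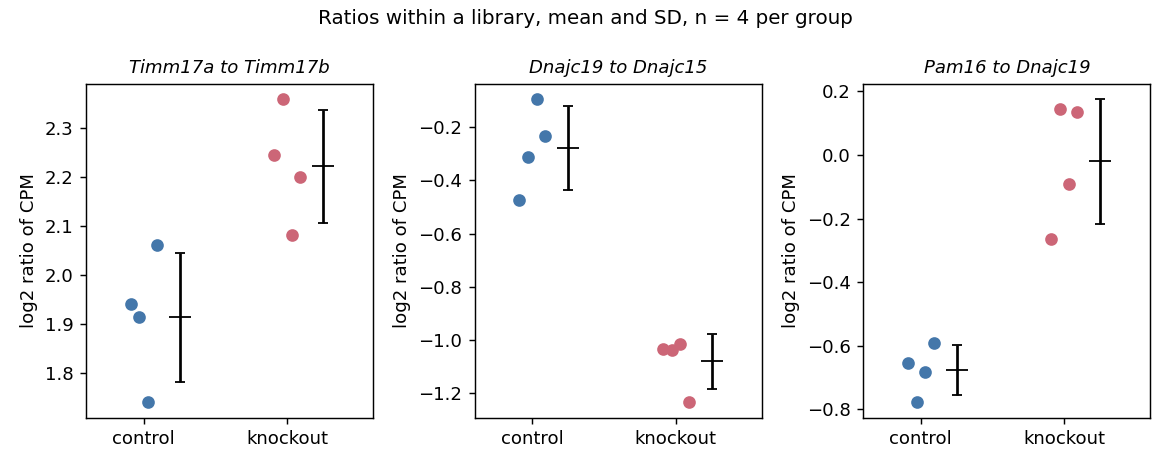
Log2 ratio of CPM within each library for the Timm17 paralogs, the J-domain paralogs and Pam16 to Dnajc19, in 4 control and 4 knockout libraries (points), with the mean and SD in black; the axes do not start at 0. The 2 groups do not overlap in any of these ratios, and the share of other gene pairs without overlap was not computed.

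Relative to Timm23 of the same library, Timm17a, Timm50, Pam16 and Dnajc15 stood higher in knockout muscle and Dnajc19 lower. The log2 differences were 0.40 for Timm17a (SE 0.0573), 0.42 for Timm50 (SE 0.0642), 0.41 for Pam16 (SE 0.106), 0.55 for Dnajc15 (SE 0.139) and -0.25 for Dnajc19 (SE 0.122). None of these 5 ratios overlapped between the groups, each with an exact permutation p of 0.0286 and an adjusted p of 0.0429. All 5 share Timm23, whose own log2 fold change was -0.38, beside 0.03 for Timm17a, 0.04 for Timm50 and 0.03 for Pam16. The higher ratios of these genes are thus no result apart from the lower Timm23. For this and the other ratios given here, the share of other gene pairs without overlap was not computed. The exact permutation p of the Dnajc19 ratio changed most when 1 library was left out. It was -0.15 without knockout 2 (exact permutation p = 0.143) and -0.20 without control 3 (exact permutation p = 0.114), and the exact permutation p was 0.0571 without control 1, 2 or 4. For Dnajc15, the exact permutation p was 0.0571 when any 1 control library was left out, and for Pam16 it was 0.0571 without knockout 4. In all these settings the groups still did not overlap, so the higher p does not stand for overlap.

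The ratios to Timm23 of the other 4 members overlapped. The log2 differences were 0.09 for Timm17b (SE 0.0648), 0.15 for Timm44 (SE 0.0486), 0.12 for Romo1 (SE 0.110) and 0.25 for Timm21 (SE 0.0951), with adjusted exact permutation p of 0.218, 0.0762, 0.257 and 0.137. Without knockout 2 the groups of Timm21 and Romo1 differed by 0.34 and 0.21, each with an exact permutation p of 0.0286.

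Per kilobase of exon, using the deposited exon widths, Timm17a had the highest value of the members in control muscle with 110 ± 3.57 CPM per kb. Romo1 followed with 92.7 ± 5.87 CPM per kb. Timm23 (74.3 ± 4.33) and Dnajc15 (72.1 ± 8.45) came next and overlapped in their ranges. Timm44 (45.5 ± 2.99) and Pam16 (43.5 ± 4.59) overlapped too, then came Timm50 (36.3 ± 3.95) and Timm21 (19.3 ± 1.41), and Timm17b (14.9 ± 1.20) and Dnajc19 (13.9 ± 1.63) overlapped at the low end, all in CPM per kb.

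In knockout muscle Timm17a was again highest with 112 ± 8.18 CPM per kb. Dnajc15 (81.3 ± 8.89) and Romo1 (77.9 ± 7.37) followed and overlapped, with Timm23 (57.3 ± 4.54) below both. Pam16 (44.3 ± 2.29) overlapped with Timm44 (38.8 ± 2.78), and Timm44 with Timm50 (37.3 ± 3.22). Dnajc19 was lowest with 8.98 ± 0.963 CPM per kb and no longer overlapped with Timm17b (12.2 ± 0.310). Lengths are those of the deposited gene models, and the transcripts used in muscle may be shorter. Of the 75-base stretches of all annotated transcripts (GENCODE M21), 52.1% for Timm23 and 34.2% for Pam16 also occur in other genes. These transcripts cover 1786 and 2435 exon bases, and the deposited exon widths are 1162 and 552 bases. The shared part of the deposited widths was not computed. Reads that map to more than 1 place were left out, so the value per kb of Timm23 may be too low in both groups. For Pam16 the shared stretches occur in Glis2, which overlaps it on the opposite strand, and in Gm9803. Bases where Pam16 and Glis2 overlap are 1 place in the genome, so this filter need not remove their reads. The effect on the value of Pam16 was not tested.

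The other genes of the import pathway are given by list, beside 23.6% of all genes higher and 21.1% lower, and no difference between lists was tested. Of the 7 genes of the import motor and the matrix chaperones, 4 were higher, none lower and 3 did not pass (median log2 fold change 0.47). Hspa9, the HSP70 motor itself, had 604 ± 37.8 CPM in control and 1328 ± 104 CPM in knockout muscle, a log2 fold change of 1.14 (adjusted p = 4e-06, edgeR). Hspe1, the matrix co-chaperonin, had a log2 fold change of 0.70 (adjusted p = 0.0018, edgeR).

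Of 9 genes of the TIM22 carrier translocase and the small TIM chaperones, 2 were higher, 3 lower and 4 did not pass. Timm10 and Timm8a1, chaperones of the intermembrane space, had log2 fold changes of 1.20 and 1.10 (adjusted p = 1e-06 and 5.9e-04, edgeR). The 3 lower genes were Timm29 (-0.96), Timm22 (-0.67) and Timm8b (-0.44). The list of the TOM complex, the entry gate of the outer membrane, and its receptors holds 9 genes, not all of them subunits of the complex. Of these, 4 were higher, 1 lower and 4 did not pass. The log2 fold change was 0.56 for Tomm20, a presequence receptor, and -0.89 for Tomm40l, a paralog of the pore protein.

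Of 7 presequence peptidases, 1 was higher, 3 were lower and 3 did not pass. Immp2l, of the inner membrane peptidase, had a log2 fold change of 0.98, and Mipep, which trims presequences further, one of -0.79. Of 7 inner membrane partners, 1 was higher, 3 were lower and 3 did not pass. The log2 fold change was 0.55 for Phb2, a prohibitin, and -0.89 for Oma1, an inner membrane protease. Phb, the other prohibitin, was called lower at -0.51 (adjusted p = 6.4e-04, edgeR). On library totals alone these counts shift towards higher as they do for all genes.

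**Figure D4:**
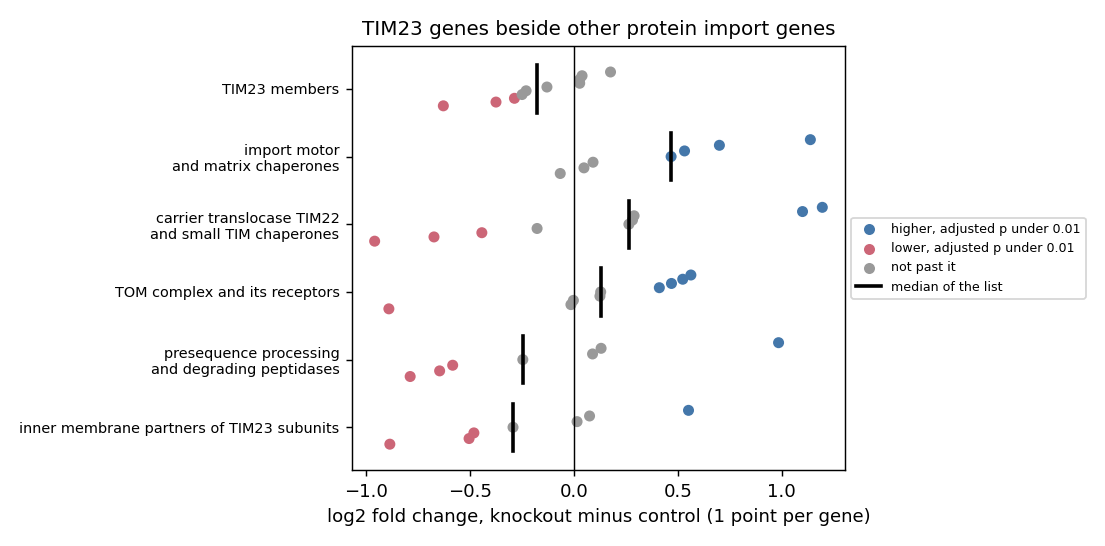
Log2 fold change (knockout minus control, TMM scaling) of each gene, 1 point per gene, in the TIM23 members and 5 other lists of import genes, coloured by the call at an adjusted p of 0.01, with the median of each list as a black line. The members have 3 genes lower and none higher, and the motor and chaperone list 4 higher and none lower; on library totals alone the members have 9 higher and none lower.

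With TMM scaling, some markers of other cell types were called too, beside 23.6% of all genes higher and 21.1% lower. Their calls on library totals alone are not given here. All 5 endothelial markers were lower (summed level 273 to 382 CPM in control and 188 to 213 CPM in knockout libraries), 3 of 5 fibroblast markers were lower (985 to 1683 CPM and 469 to 706 CPM), and 1 of 5 macrophage markers, Cd68, was higher (summed level 51.8 to 128 CPM in control and 103 to 186 CPM in knockout libraries). Of 2 satellite cell markers, Myf5 was higher (log2 fold change 1.44, adjusted p = 2.6e-04, edgeR), with a summed level of 3.07 to 4.87 CPM in control and 6.13 to 7.75 CPM in knockout libraries. None of the 4 red blood cell and 4 Schwann cell markers passed, with summed levels of 37.8 to 93.6 and 66.8 to 173 CPM in control and 8.11 to 89.7 and 90.1 to 140.3 CPM in knockout libraries. None of the 5 adipocyte markers passed, although their summed level spread from 9.52 to 300.2 CPM in control and from 132 to 580 CPM in knockout libraries. With the adipocyte markers as a covariate, the log2 fold change was -0.36 for Timm23 and -0.52 for Dnajc19, with adjusted p of 0.0086 and 0.0029 in edgeR's test. The part of the other cell types in these values was not tested.

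The genes whose log2 CPM followed a member most closely over the 8 libraries, by Pearson's r among 11047 genes with a mean count of at least 50, are given as a description, since all 8 points share the 2 groups. For Timm23 they were Btbd2, Hook1 and Gatc (r of 0.99 each), and for Dnajc19 Ctbp1, Ndufb4 and Ttf1 (r from 0.993 to 0.997), all with a negative log2 fold change. For Timm17a they were Srebf1, Ifih1 and Ctsb (r from 0.92 to 0.93), with log2 fold changes between 0.05 and 0.13.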

How the data were processed

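The authors sequenced polyadenylated RNA of 8 QF muscles, 1 library per mouse, with a directional kit and read pairs, trimmed with bcl2fastq 2.20.0.422 and cutadapt, mapped to GRCm38 with STAR 2.5.4b and deposited counts per gene over exons. They had removed duplicates, chimeric pairs, pairs mapping to several places or with a low mapping score, and genes of low total count. The annotation release and the use of strand are not given in the sources used here, and the labels and the methods name different RNA extraction reagents. The deposited FPKM, made by the authors from these counts and the deposited exon widths, served as an alternative for ratios. The deposited table also holds the authors' fold changes and p-values, which were not used.

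All 14012 genes were tested with edgeR 4.0.16 (quasi-likelihood, TMM factors, R 4.3.3) with Benjamini-Hochberg adjustment at 0.01. Log2 CPM used a prior count of 2. Ratios and single levels were compared by exact permutation over 70 assignments of 4 against 4. On simulated counts over 13990 genes, edgeR recovered 69% of genes changed by 1 and 83% of those changed by 2 on the log2 scale when the changed genes were drawn from all genes, with 3 false calls. This missed the bound set for it beforehand, and a second simulation was added. With changed genes of at least 50 mean control counts it recovered 80% and 100%, with 2 false calls. Changes as small as those of the members were not simulated. Alternatives were RLE, upper-quartile and library-total scaling, TMM without the 20 most abundant genes, a filter of 10 counts in 4 libraries, DESeq2 1.42.0, a threshold of 0.05, the replicate number as a block, an adipocyte covariate, and each library left out.

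The members and lists were chosen with earlier results of these data known. Named are all members, from each pathway list the 2 called genes with the largest absolute fold change, Grpel1 and Hspa9. For Timm23, Timm17a and Dnajc19 the 3 genes most correlated with them are named too. Genes sharing sequence or exons with a member, and Cd68, Myf5, Timm29, Timm22, Timm8b and Phb, were named after their values were seen. Timm29 is listed as 1810026J23Rik in the table, and Coa1 was not analysed here.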

Additional observations from a re-analysis of the deposited data

Results flagged for a closer look

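Of 44 groups of 4 libraries tested for a library far from the others by Dixon's test, 3 were flagged, and chance flags about 1 in 20. Knockout 4 had a log2 ratio of Dnajc19 to Dnajc15 of -1.23, below the other knockout libraries. Knockout 2 had a log2 ratio of Timm21 to Timm23 of -1.79 and of Dnajc19 to Timm23 of -1.73, both below the other knockout libraries. Without knockout 4 the difference of the first ratio was -0.75, and without knockout 2 those of the others were 0.34 and -0.15.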

How the results depend on the processing

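The call of Timm23 and of Dnajc19 kept its direction and its side of the threshold under every alternative except library totals alone. With library totals alone, 9 members were called higher and 0 lower, and the log2 fold changes were 0.70 for Timm17a, 0.38 for Timm17b, 0.54 for Timm21, 0.30 for Timm23, 0.44 for Timm44, 0.71 for Timm50, 0.42 for Romo1, 0.70 for Pam16, 0.040 for Dnajc19 and 0.85 for Dnajc15, where the median of all genes was 0.73. In that setting the motor list had 7 genes called higher, the TIM22 list 7 higher and 1 lower, the TOM list 8 higher and 0 lower, the peptidases 4 higher and 0 lower and the inner membrane partners 4 higher and 0 lower. The alternatives for these lists were added after seeing the data.

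With RLE size factors, DESeq2 or a threshold of 0.05, 5 members were lower, beside 22.9%, 24.8% and 27.5% of all genes, Timm44 (log2 fold change -0.28, -0.28 and -0.23) and Romo1 (-0.30, -0.30 and -0.25) being added, and at 0.05 the TIM22 list had 5 genes higher and 4 lower. In these 3 settings the peptidases and the inner membrane partners each had 4 lower. With RLE and DESeq2 the values of Timm17a (both -0.019), Timm50 (-0.0078 and -0.0074) and Pam16 (-0.018 and -0.017) changed sign without passing, as did Timm17a (-0.0043) with the adipocyte covariate, with which Timm17b was -0.21.

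Whether the replicate numbers pair the samples was not settled. The mean log2 CPM of each gene in its group was subtracted first, and the remaining deviations were correlated over all genes. Correlations of these deviations were 0.118, 0.0031, 0.42 and 0.138 for same-numbered control and knockout libraries. For differently numbered ones they ran from -0.295 to 0.112. Since the deviations of a gene add up to 0 in each group, these correlations are not independent of each other. For control 1, 3 and 4 the same-numbered value was the highest, and for control 2 it was not. With the replicate block Timm17b was -0.28 (adjusted p = 0.012) and no other member's call changed. For the ratios the block leaves 4 pairs, whose exact sign-flip test cannot go below p = 0.125 and so says nothing about stability. The differences it gave were 0.31 for Timm17a to Timm17b, -0.80 for Dnajc19 to Dnajc15, 0.66 for Pam16 to Dnajc19, and, to Timm23, 0.40 for Timm17a, 0.42 for Timm50, 0.41 for Pam16, -0.25 for Dnajc19 and 0.55 for Dnajc15.

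Over the libraries left out in turn, 2 to 3 members were lower. The log2 fold change ran from -0.029 to 0.040 for Timm17a, -0.33 to -0.23 for Timm17b, -0.037 to 0.077 for Timm50, -0.32 to -0.21 for Romo1 and -0.025 to 0.10 for Pam16. The ratios ran from 0.25 to 0.36 for Timm17a to Timm17b and, to Timm23, from 0.20 to 0.34 for Timm21, 0.070 to 0.21 for Romo1, 0.32 to 0.46 for Pam16, -0.29 to -0.15 for Dnajc19 and 0.47 to 0.67 for Dnajc15. Ratios were judged here by the unadjusted exact p at 0.05. Where no value shows it, the cause was not tested.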
